A study of Mus musculus with 4 samples.

Results

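Cycling CD4 T cells were 755 of 12325 kept cells: 441 of 5993 in mouse 1 (7.36%, 95% interval 6.71 to 8.05%) and 314 of 6332 in mouse 2 (4.96%, 4.44 to 5.52%). A barcode was kept when it had 500 or more detected genes and no more than 10% of UMIs from mitochondrial genes (unique molecular identifiers, each standing for 1 captured RNA molecule), with exactly 1 productive TRB and at most 2 productive TRA contigs. The members were chosen by their measured Mki67 and Top2a counts: a kept cell was called cycling when it held at least 2 Mki67 UMIs and at least 1 Top2a UMI. It was set against the comparison cells, which held 0 UMIs of both genes and numbered 4278 and 4451. The cells between these definitions, 1274 and 1567, entered neither class. In the study, CD4 T cells were purified on magnetic columns from spleens of 2 donor mice of the B6.H2g7 strain (B6.NOD-(D17Mit21-D17Mit10)/LtJ) aged 6 to 8 weeks. Each of 2 NOD.Rag1null hosts, in which lymphocytes do not develop for want of receptor gene rearrangement, received 5000000 cells, and live CD4+ TCRβ+ cells were sorted from the host spleens on day 14. There was 1 gene expression library and 1 receptor library per host, all from this single condition, with no untreated or unsorted group. The 2 hosts are called mouse 1 and mouse 2, and each comparison below is between classes of cells of the same host. The labels do not say whether the donors' cells were pooled, so the spread between the hosts may not include differences between donors. All intervals are exact Clopper-Pearson 95% intervals and cover counting error only.

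Dividing cells copy their DNA in S phase and separate the copies in G2 and M phase, and different sets of genes are transcribed in each. Mki67 encodes the Ki-67 antigen that coats mitotic chromosomes, Top2a the topoisomerase that untangles copied DNA, and Birc5 survivin, a subunit of the complex that guides chromosome segregation. T cells placed in a host without lymphocytes divide, some slowly in response to homeostatic cytokines and some quickly in response to antigen. Regulatory T cells (Treg), marked by the transcription factor Foxp3, are a CD4 lineage that restrains other T cells and depends on interleukin 2 from them. Vβ3 is the receptor β chain variable segment encoded by the gene TRBV26.

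The cycling cells belonged to many clonotypes, a clonotype being all cells of 1 mouse that shared V segment, J segment and CDR3 bases of the TRB chain. The CDR3 is the receptor loop formed where V, D and J segments are joined, and it names a clone. The CDR3 sequences of the 3 clonotypes of each mouse with the most cycling cells are given from the deposited receptor tables, 5′ to 3′, to show how the receptors of these clones were related. Capitals mark the bases that match neither the germline V nor the germline J segment.
Mouse 1 clonotype 1 (TRBV31, TRBJ1-4): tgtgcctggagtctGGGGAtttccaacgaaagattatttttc
Mouse 1 clonotype 2 (TRBV31, TRBJ1-4): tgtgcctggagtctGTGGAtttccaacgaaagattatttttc
Mouse 1 clonotype 3 (TRBV14, TRBJ2-4): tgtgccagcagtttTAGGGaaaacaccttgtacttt
Mouse 2 clonotype 1 (TRBV29, TRBJ2-3): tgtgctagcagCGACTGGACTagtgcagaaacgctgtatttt
Mouse 2 clonotype 2 (TRBV13-1, TRBJ2-7): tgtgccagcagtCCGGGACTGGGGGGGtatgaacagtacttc
Mouse 2 clonotype 3 (TRBV5, TRBJ2-5): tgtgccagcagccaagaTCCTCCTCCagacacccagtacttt
The first 2 sequences of mouse 1 share V segment, J segment and length (42 bases) and differ by G16T, with clonotype 1 as the reference and positions counted from 1 at the 5′ end. The sequence of mouse 1 clonotype 3 has 36 bases. None of the 6 carried TRBV26.

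The label was checked against the third marker, Birc5, which the rule did not use. A Birc5 UMI was found in 85.9% of cycling cells of mouse 1 and 73.6% of mouse 2, against 2.48% and 1.69% of comparison cells. The gate was less clean at its edge. Of the cells with exactly 2 Mki67 UMIs and 1 Top2a UMI, just inside it, 4 of 18 in mouse 1 and 2 of 23 in mouse 2 held Birc5. Just outside it, Birc5 was found in 32 of 98 and 40 of 139 cells with at least 2 Mki67 and 0 Top2a UMIs, and in 18 of 116 and 9 of 127 cells with 1 Mki67 UMI and some Top2a. Of the cells with at least 6 Mki67 and 4 Top2a UMIs, 95.9% of 294 and 94.2% of 172 held Birc5. T cell markers were also present: Cd3e was found in 99.5% and 98.7% of cycling cells, Cd4 in 88.4% and 90.8%, and Cd8a in none of the kept cells of any class. Cd8b1, the gene of the other CD8 chain, was found in 10.9% and 9.55% of cycling and 4.14% and 4.76% of comparison cells. The comparison cells were captured at lower depth, and these shares were not taken at equal depth.

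Cycling cells were captured at greater depth than comparison cells. Their median was 13268 and 15764 UMIs and 3931 and 4299.5 genes per cell, against 5219 and 5885 UMIs and 2204 and 2420 genes. Mitochondrial UMIs made up a median of 1.25% and 1.30% against 1.73% and 1.78%. Since a deeper cell is more likely to pass a gate on UMIs, shares of cycling cells were also taken after each cell was thinned to 4000 UMIs, with 1321 and 846 shallower kept cells left out, 9 and 7 of them cycling. The share was then 6.29% and 2.97%. Cells with at least 2 UMIs of Igfbp4, a gene of naive T cells, which divide little, gave a background for the gate: 7 of 152 in mouse 1 (4.61%, 1.87 to 9.26%) and 11 of 234 in mouse 2 (4.70%, 2.37 to 8.26%) passed it, at a median of 7706 and 9664.5 UMIs. The other kept cells passed at 7.43% (6.77 to 8.13%) and 4.97% (4.44 to 5.54%), at 5558 and 6159 UMIs, so in neither mouse were these shares distinguishable at this depth. Whether the Igfbp4 cells that passed were dividing was not tested, so their share is not a rate of false calls. A Top2a UMI alone was found in 21.7% and 21.8% of the other cells and 20.4% and 23.5% of the Igfbp4 cells, and a Mki67 UMI in 16.5% and 14.9% against 6.58% and 11.5%. The 2 expression libraries shared 166 cell barcodes, 58 of them kept in both mice and 0 of them cycling in both.

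Foxp3-positive cells were cycling more often than Foxp3-negative cells in both mice. A cell was called Foxp3-positive with at least 1 Foxp3 UMI. In mouse 1, 121 of 919 Foxp3-positive cells were cycling (13.2%, 11.05 to 15.5%) and 320 of 5074 Foxp3-negative cells (6.31%, 5.65 to 7.01%). In mouse 2 the shares were 87 of 1146 (7.59%) and 227 of 5186 (4.38%). The difference was 6.86 and 3.21 percentage points, a mean of 5.04 ± 2.58 (SD, n = 2), and 3.28 and 1.68 points in thinned cells. Seen from the other side, 27.4% and 27.7% of cycling cells were Foxp3-positive, against 13.5% and 17.4% of comparison cells, and 19.9% and 21.8% against 12.7% and 16.2% in thinned cells. Cells with at least 5 UMIs of the effector chemokine Ccl5 were taken as the background of a Foxp3 UMI. It was found in 13.5% and 14.2% of these among cycling cells and in 15.2% and 20.4% among comparison cells, so the higher Foxp3 share of cycling cells was not seen within them. In the other cells it was found in 45.8% and 38.7% of cycling and 12.3% and 15.6% of comparison cells. The 2 largest clonotypes of each mouse, chosen after their values were seen, gave a lower background: 2 of 222 and 2 of 216 cells in mouse 1 and in 4 of 366 and 3 of 158 cells in mouse 2. With 2 mice the smallest two-sided exact permutation p is 0.5, so shares are given per mouse with no test.

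Vβ3 cells, the most numerous V gene class, were cycling less often than the rest. In mouse 1, 107 of 2084 Vβ3 cells were cycling (5.13%, 4.23 to 6.17%), against 334 of 3909 other cells (8.54%, 7.69 to 9.46%). In mouse 2 the shares were 71 of 1960 (3.62%) and 243 of 4372 (5.56%). The difference was -3.41 and -1.94 percentage points, and -2.82 and -1.87 points in thinned cells. Vβ3 cells thus made up 24.3% and 22.6% of cycling cells and 36.5% and 33.0% of comparison cells. Among Foxp3-negative cells the order was the same in both mice, with 4.67% and 2.99% for Vβ3 and 7.29% and 5.06% for the rest. Among Foxp3-positive cells it was not: 18 of 177 Vβ3 cells (10.2%) against 103 of 742 others (13.9%) were cycling in mouse 1, and 20 of 254 (7.87%) against 67 of 892 (7.51%) in mouse 2. In clonotypes under 20 cells the shares were 4.59% and 3.68% for Vβ3 and 8.42% and 6.30% for the rest.

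**Figure D1:**
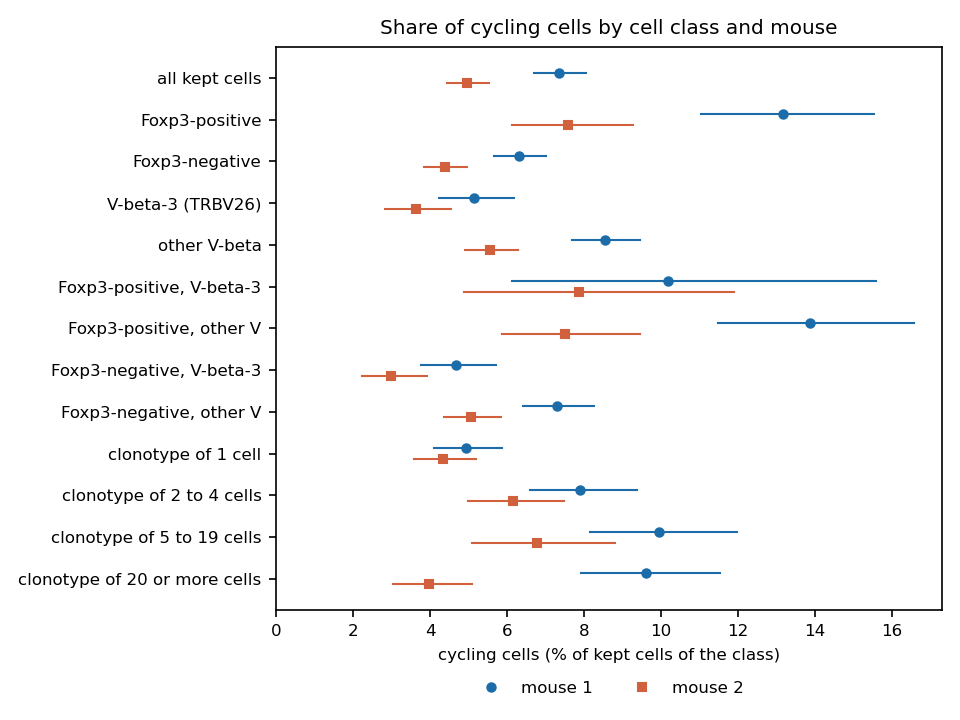
Share of kept cells that were cycling (x axis, percent) by class of cell (y axis) in mouse 1 (circles) and mouse 2 (squares), with exact 95% intervals as lines. Foxp3-positive cells lie at 13.2% and 7.59%, above Foxp3-negative cells at 6.31% and 4.38%, and Vβ3 cells at 5.13% and 3.62% lie below other Vβ cells.

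Across the 12 V genes with at least 100 kept cells in each mouse, TRBV26 had the lowest mean share of cycling cells and TRBV5 the highest. The share for TRBV5 was 12.6% and 8.30%, followed by TRBV31 at 9.66% and 9.26%, TRBV2 at 9.17% and 9.38%, TRBV19 at 10.99% and 5.76%, TRBV16 at 8.99% and 7.53% and TRBV1 at 9.52% and 6.90%. Lower means were found for TRBV13-1 at 7.20% and 6.62%, TRBV13-3 at 7.77% and 4.70%, the jointly annotated TRBV12-2+TRBV13-2 at 6.82% and 5.42%, TRBV14 at 9.09% and 2.58% and TRBV23 at 6.99% and 3.31%. The rarer V genes together had 8.57% and 4.47%. Most neighbours in this order could not be told apart, since the intervals within a mouse overlapped; in mouse 2 that of TRBV26 (2.84 to 4.55%) overlapped that of TRBV23 (2.13 to 4.89%). Single clones moved some of these values. Without mouse 1 clonotype 1, the share of TRBV31 in that mouse was 6.09% (19 of 312 cells). The order also depended on depth. In thinned cells TRBV26 again had the lowest mean (3.07%), but the highest was that of TRBV19 (8.38%), with TRBV5 at 7.74%.

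**Figure D2:**
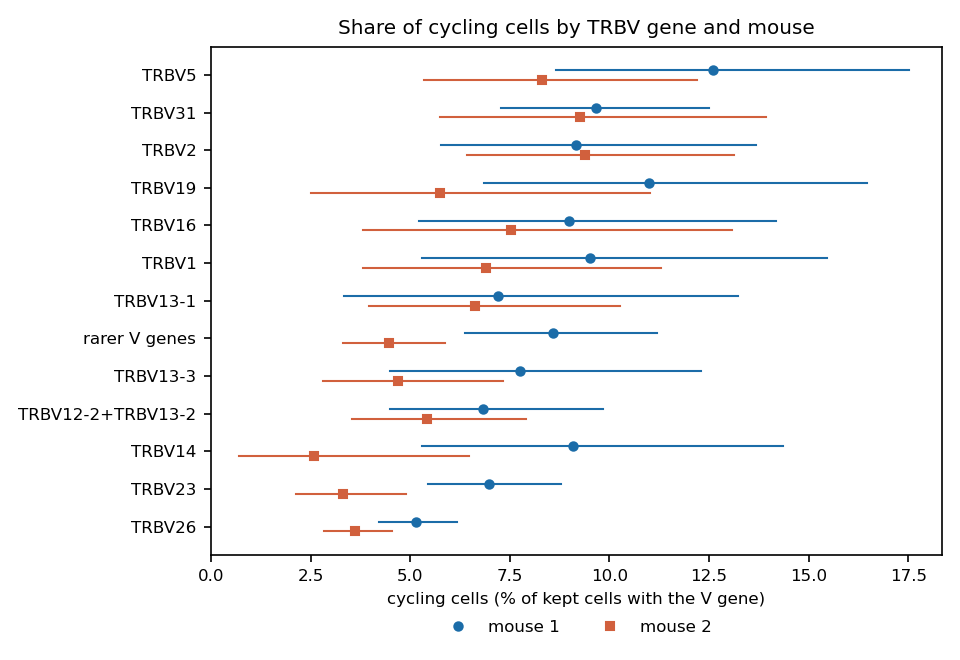
Share of cycling cells (x axis, percent) among kept cells of each TRBV gene (y axis, ordered by the mean of the mice), with exact 95% intervals, for mouse 1 (circles) and mouse 2 (squares). TRBV26, which encodes Vβ3, has the lowest mean, at 5.13% and 3.62%.

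Cells of clonotypes found more than once were cycling more often than cells of single-cell clonotypes in mouse 1, while in mouse 2 the intervals overlapped. In mouse 1 the share was 8.98% (8.06 to 9.96%) against 4.93% (4.09 to 5.87%). In mouse 2 it was 5.39% (4.69 to 6.16%) against 4.33% (3.58 to 5.19%). The difference was 4.05 and 1.06 percentage points. By size, clonotypes of 1, of 2 to 4, of 5 to 19 and of 20 or more cells had 4.93%, 7.89%, 9.94% and 9.62% cycling cells in mouse 1. In mouse 2 the values were 4.33%, 6.14%, 6.76% and 3.97%. Clonotypes of 20 or more cells thus lay above single-cell clonotypes in mouse 1 only. In mouse 2 their interval (3.04 to 5.08%) overlapped that of single-cell clonotypes. The 441 and 314 cycling cells came from 299 of 3166 and 236 of 3316 clonotypes. Only 56 and 35 clonotypes held 2 or more cycling cells; in 15 and 8 of them every cycling cell was Foxp3-positive, in 37 and 23 none was, and 4 and 4 were mixed. Of the 19 clonotypes of 20 or more cells in each mouse, 18 and 16 held a cycling cell, and the median share of cycling cells was 9.80% and 3.08%. There were 63 TRB sequences found in both mice (1.99% and 1.90% of clonotypes), of which 2 had a cycling cell in both.

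The 6 clonotypes printed above differed in how much of the clone was cycling. In mouse 1 clonotype 1 had 32 of 216 cells cycling (14.8%, 10.4 to 20.3%) and clonotype 2, whose CDR3 differs by the single base G16T, 13 of 222 (5.86%, 3.15 to 9.81%). Clonotype 3 had 10 of 88 (11.4%). In mouse 2 clonotype 1, the largest clone of that mouse, had 15 of 366 (4.10%, 2.31 to 6.67%), clonotype 2 had 11 of 158 (6.96%) and clonotype 3 had 5 of 29 (17.2%). The clones were ranked by these cycling cells, so the values describe them and are not tested. The first 2 clones of mouse 1 also shared 2 transcripts of the α and δ receptor locus. A UMI of Trdc, the constant region of the δ chain, was found in 71.8% and 82.0% of their cells, and one of Trav21-dv12, a variable gene that can serve either chain, in 99.5% and 95.5%. In cells of other clonotypes Trdc was found in 0.677% in mouse 1 and 0.381% in mouse 2.

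Genes of S phase and of G2 and M phase were both found in the cycling cells. The UMIs of 44 S phase and 53 G2 and M phase genes were summed in each cycling cell, and the S phase genes made up a median of 36.3% of that sum in mouse 1 and 41.7% in mouse 2. They led in 35.1% and 38.2% of cells, and 96 and 86 cells lay within 40 to 60%, near the line. By class, S phase genes led in 33.1% and 32.2% of Foxp3-positive and 35.9% and 40.5% of Foxp3-negative cycling cells, and in 29.9% and 38.0% of Vβ3 and 36.8% and 38.3% of other cycling cells. All these intervals overlapped within a mouse. Comparison cells with a UMI of either list had a median S phase share of 42.9% in both mice. S phase genes led in 28.2% and 29.7% of them, on a median of 13 and 14 list UMIs against 304 and 331.5 in cycling cells. The share therefore does not by itself place a cell in a phase. It also follows the gate on Mki67 and Top2a, so it describes the gated cells only.

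Cycling cells differed from comparison cells in a large part of the transcriptome. UMIs were summed per mouse and class and tested with edgeR's quasi-likelihood test with the mouse as a block, a change being called at a Benjamini-Hochberg adjusted p under 0.05. Of 12523 genes tested, 7240 were called (57.8%), 3624 higher (28.9%) and 3616 lower (28.9%) in cycling cells, and for 7167 (57.2%) both mice showed the called direction. Levels are CPM, a gene's UMIs per 1000000 UMIs of the sum, so a gene that fell made up less of the RNA and was not necessarily rarer per cell. When equal numbers of both classes were taken from each bin of 1000 UMIs (253 and 183 cells of each, the rest left out), 3452 of 9875 genes were called (35%), 20% higher and 14.9% lower. Their medians were 9626 and 11554 UMIs in cycling and 9388 and 11331 UMIs in comparison cells. The matched comparison cells were thus deeper than their class and the matched cycling cells shallower, so depth-matched values describe a selected part of each class. Cell cycle genes follow the gate on Mki67 and Top2a, so their values and counts are a description of the class and are no test of it.

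Cell cycle genes were higher throughout. All 44 S phase genes were higher, with a median log2 fold change of 3.15 (2.29 in depth-matched cells), beside -0.04 over all genes tested. Mcm5, a subunit of the helicase that opens DNA for replication, was at 25.1 and 23.7 CPM in comparison cells and 281 and 287 CPM in cycling cells. Tyms, thymidylate synthase, was at 22.9 and 18.6 CPM in comparison cells and 363 and 330.5 CPM in cycling cells. All 53 G2 and M phase genes were higher, with a median of 5.60 (4.63 depth-matched). Cdk1, the kinase that starts mitosis, was at 5.66 and 4.37 CPM in comparison cells and 328 and 285 CPM in cycling cells, and Birc5 at 6.98 and 4.3 CPM in comparison cells and 559 and 531 CPM in cycling cells. Of 65 replication-dependent histones, 55 passed the filter on low counts and all 55 were higher, with a median of 3.81. The linker histone Hist1h1b was at 34.7 and 23.4 CPM in comparison cells and 1179 and 1139 CPM in cycling cells. The largest increases among genes of at least 20 CPM included those of Ankle1, a nuclease, at 0 and 0.0717 CPM in comparison cells and 25.4 and 25.4 CPM in cycling cells, and Pbk, a mitotic kinase, at 0.298 and 0.215 CPM in comparison cells and 98.8 and 76.3 CPM in cycling cells. For each gene named here both cycling sums lay above both comparison sums.

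Promoters of the G2 and M phase genes are shown because these members moved together and are known to be controlled through the CHR element and the CCAAT box, bound by the DREAM and MuvB complexes and by NF-Y. Sequences are from RefSeq (GRCm38.p6), 120 bases up to the base before the gene's start and on the gene's strand, with every CHR (TTTGAA or TTCGAA) and CCAAT on either strand in capitals.
Cdk1, chr10:69352913-69353032, minus strand: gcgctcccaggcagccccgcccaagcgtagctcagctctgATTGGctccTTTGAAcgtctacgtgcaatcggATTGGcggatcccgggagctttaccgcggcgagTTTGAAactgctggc
Cdc20, chr4:118437344-118437463, minus strand: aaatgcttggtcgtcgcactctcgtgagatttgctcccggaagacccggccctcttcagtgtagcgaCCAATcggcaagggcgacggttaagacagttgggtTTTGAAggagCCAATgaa
The Cdk1 stretch holds 4 matches and the Cdc20 stretch 3. Cdc20, the activator of the ligase that ends mitosis, was chosen for its promoter after its values were seen and was at 3.15 and 2.29 CPM in comparison cells and 223 and 213 CPM in cycling cells. Of the 53 G2 and M phase genes, 47 matched the RefSeq promoter table by symbol. In the 250 bases before their starts, 44.7% of the 47 held a CHR, 76.6% a CCAAT and 38.3% both, against 19.6%, 37.5% and 7.001% of all 27025 genes. A match is a description of letters and not a bound site. Only 32 of the 44 S phase genes and 0 of the histones matched, too few for such a check, so whether these elements are more frequent in G2 and M phase than in other cell cycle promoters was not tested.

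The cyclins, kinases and E2F factors that drive the cycle rose and its inhibitors split. Of 23 tested, 21 rose and 2 fell, Ccnd2 (-0.83) and Ccnd3 (-0.17), the D-type cyclins that act in G1. Mybl2, a factor for G2 and M phase genes, was at 0.724 and 0.968 CPM in comparison cells and 68.5 and 76.3 CPM in cycling cells. Of 15 inhibitors, 5 rose and 6 fell, and 6 rose and 3 fell depth-matched. Cdkn2c, an inhibitor of the G1 kinases, was at 32.6 and 32.3 CPM in comparison cells and 182 and 152 CPM in cycling cells (log2 fold change 2.45 ± 0.08 (SE)), and Cdkn2a rose with it (2.80 ± 0.13). Btg1, an antiproliferative factor of resting lymphocytes, was at 815 and 758 CPM in comparison cells and 222 and 212 CPM in cycling cells (log2 fold change -1.77 ± 0.08 (SE)), and still fell among depth-matched cells (-0.80). Cdkn1b, the inhibitor p27 that holds T cells in quiescence, fell in share of RNA by 0.48 on the log2 scale, but was at 0.090 and not called in depth-matched cells. Of 24 genes of nucleotide synthesis 22 rose and 1, Rrm2b, fell (median 1.06), and 14 rose depth-matched. Tk1, thymidine kinase, rose from 5.79 and 4.55 to 260 and 257 CPM. Of 20 genes of chromatin and DNA methylation 17 rose, among them the histone chaperone Asf1b (5.04) and the condensin subunit Smc2 (3.81), and of 15 tubulin and spindle genes 14 rose, with Stmn1, which takes microtubules apart, at 5.17.

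Genes of resting and naive T cells made up less of the RNA of cycling cells. Of 20, 16 fell and 1 rose, with a median of -1.02 (14 fell and 1 rose depth-matched, median -0.70). Tcf7, the transcription factor of naive and memory-like T cells, was at 521 and 524 CPM in comparison cells and 94.4 and 133 CPM in cycling cells (log2 fold change -2.13 ± 0.08 (SE), edgeR adjusted p = 2.03e-135). Per cell that was 2.86 and 3.29 UMIs in a comparison cell and 1.36 and 2.15 UMIs in a cycling cell. Bcl2, which blocks apoptosis, was at 170.1 and 189 CPM in comparison cells and 49.1 and 64.5 CPM in cycling cells (log2 fold change -1.58 ± 0.09 (SE), edgeR adjusted p = 2.53e-74). Ccr7, the receptor for entry into lymph nodes, and Il7r, the interleukin 7 receptor, fell by 1.75 and 1.29, but against comparison cells of clonotypes that held a cycling cell they were at 0.21 and 0.078 and not called. That set of 1137 and 1156 comparison cells was pooled and set against all cycling cells. Of the cycling cells, 118 and 112 were of single-cell clonotypes and had no counterpart in it. The classes were not matched clone by clone, so values against this set are not changes within clones. Klf2, a quiescence factor, was at 532 and 599 CPM in comparison cells and 478 and 554 CPM in cycling cells and was not called (log2 fold change -0.05 ± 0.08 (SE), edgeR adjusted p = 0.645). The largest decreases among genes of at least 20 CPM included those of Sostdc1, a secreted antagonist of BMP and Wnt signals made by follicular helper cells, at 286 and 213 CPM in comparison cells and 10.3 and 10.6 CPM in cycling cells, and of Slfn5, a member of the interferon-regulated Schlafen family, at 35.1 and 42.6 CPM in comparison cells and 1.74 and 2.95 CPM in cycling cells. Kdm5b, a histone demethylase, was at 67.5 and 64.8 CPM in comparison cells and 5.05 and 7.48 CPM in cycling cells.

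Helper genes fell, and the other effector groups were mixed. All 16 genes of the follicular helper list fell, with a median of -1.47, the lowest value being that of Ascl2, which had 0 UMIs in cycling cells, but in depth-matched cells 9 fell and 1 rose. Il21, the cytokine that drives B cell help, was at 92.3 and 73.8 CPM in comparison cells and 36.8 and 23 CPM in cycling cells (log2 fold change -1.39 ± 0.10 (SE), edgeR adjusted p = 5.81e-44), and at -0.24 and not called in depth-matched cells. Tnfsf8, the CD30 ligand, was at 255 and 252 CPM in comparison cells and 28.9 and 32.9 CPM in cycling cells, and fell by 2.10 depth-matched. Of 16 Th1 genes 11 fell and 4 rose, Runx3, Ly6c2, Il12rb1 and Tbx21, and among depth-matched cells 4 fell and 2 rose. DESeq2 called 5 Th1 genes lower and 2 higher, beside 12.5% and 20.1% of all genes. The chemokine Ccl5 was at 12485 and 11143 CPM in comparison cells and 4558 and 4009 CPM in cycling cells (log2 fold change -1.38 ± 0.07 (SE), edgeR adjusted p = 8.4e-75), yet was at 0.0080 and not called in depth-matched cells. Its level per cell was 68.5 and 69.9 UMIs in a comparison cell and 65.5 and 64.9 UMIs in a cycling cell. Of 12 cytotoxic genes 6 rose and 4 fell, Cst7, Lamp1, Klrd1 and Ctsw, and DESeq2 and depth-matched cells each gave 3 higher. Gzmk, a granzyme of memory-like effectors, was at 474 and 330.0 CPM in comparison cells and 767 and 549 CPM in cycling cells (log2 fold change 0.80 ± 0.08 (SE), edgeR adjusted p = 2.3e-22), and turned to -0.38 against comparison cells of clonotypes that held a cycling cell. Gzma was at 8.64 and 28 CPM in comparison cells and 104 and 55.9 CPM in cycling cells, a rise of 3.45 in mouse 1 and 0.97 in mouse 2 that DESeq2 did not call. Of 10 Th2 and Th17 genes 7 rose and 1, Gata3, fell, with 2 higher by DESeq2, and Tmem176b went from 13.4 to 11.2 CPM in mouse 1 and from 12.5 to 49.4 CPM in mouse 2. Ifng, at 129.6 and 108 CPM in comparison cells and 106 and 80.9 CPM in cycling cells, fell by 0.27, and was not called in depth-matched cells (0.094).

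Genes of Treg, inhibitory receptors and cytokine response mostly fell or did not pass the test. Foxp3 itself was at 93.7 and 125 CPM in comparison cells and 100.4 and 104 CPM in cycling cells (log2 fold change 0.01 ± 0.08 (SE), edgeR adjusted p = 0.93), and Il2ra and Il2rb, subunits of the interleukin 2 receptor, and Ctla4, an inhibitory receptor, were not called either (0.07 ± 0.10, -0.04 ± 0.08 and -0.10 ± 0.08). Against comparison cells of clonotypes that held a cycling cell, Foxp3 (0.82), Il2ra (1.04) and Ctla4 (0.42) were called higher. As that set was not matched clone by clone, whether these genes changed within clones was not tested. Of 19 Treg genes 11 fell and 3, Capg, Il10 and Ikzf2, rose; Izumo1r, the folate receptor 4 of Treg and anergic cells, was at 816 and 819.8 CPM in comparison cells and 212 and 214 CPM in cycling cells. Of 13 inhibitory receptor and exhaustion genes 7 fell and 3, Eomes, Havcr2 and Nr4a2, rose, of which DESeq2 called Eomes alone. Against comparison cells of clonotypes that held a cycling cell these were at -0.60, -0.40 and -0.96, and Nr4a2 was at 0.72 in mouse 1 and -0.33 in mouse 2. Pdcd1, which encodes PD-1, was at 336 and 333 CPM in comparison cells and 204 and 185 CPM in cycling cells (log2 fold change -0.69 ± 0.08 (SE), edgeR adjusted p = 5.63e-18), with -0.21 and no call at matched depth. Of 19 genes of interleukin 2 and γ chain signalling 11 fell and 0 rose, 6 fell with DESeq2 and 5 depth-matched, and Socs1, a brake on cytokine signals, was at 154 and 163 CPM in comparison cells and 53.3 and 74.2 CPM in cycling cells. Of 19 interferon response genes 17 fell and 0 rose (median -0.78), 9 of 16 at matched depth, with Isg15 at 92.3 and 92.5 CPM in comparison cells and 42.5 and 42.5 CPM in cycling cells. The background for these counts is the 28.9% of all tested genes called lower.

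The metabolic lists depended on how depth was treated. Cells thinned to 4000 UMIs, in which 20.4% of genes were called higher and 17.9% lower, gave values between those of all cells and of depth-matched cells. Of 17 glycolysis genes 11 rose (median 0.69), but in depth-matched cells 1 of 15 rose and 2 fell (median -0.07), and in thinned cells 9 of 16 rose and 1 fell (median 0.36). Gapdh, at 2563 and 2285 CPM in comparison cells and 4484 and 4022 CPM in cycling cells, had a log2 fold change of 0.90 and turned to -0.017 in depth-matched cells. Of 78 oxidative phosphorylation genes 54 rose and 4 fell (median 0.28), against 0 rising and 26 of 76 falling depth-matched (median -0.24), and 18 rising and 5 falling in thinned cells. Of 81 cytosolic ribosomal protein genes 57 fell and 7 rose (median -0.31), and 80 of 81 fell depth-matched (median -0.93). Rps27 was at 1707 and 2219 CPM in comparison cells and 640.4 and 881 CPM in cycling cells. Per cell that was 9.37 and 13.9 UMIs in a comparison cell and 9.2 and 14.3 UMIs in a cycling cell. Of 18 genes of the Myc, mTORC1 and amino acid uptake list 14 rose and 3, Rptor, Slc1a5 and Eif4ebp1, fell, and 6 rose and 5 fell depth-matched. Nop56, a factor of ribosome assembly, rose by 1.38 (0.64 depth-matched), whereas Myc rose by 0.64 over all cells and fell by 0.71 in depth-matched cells.

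**Figure D3:**
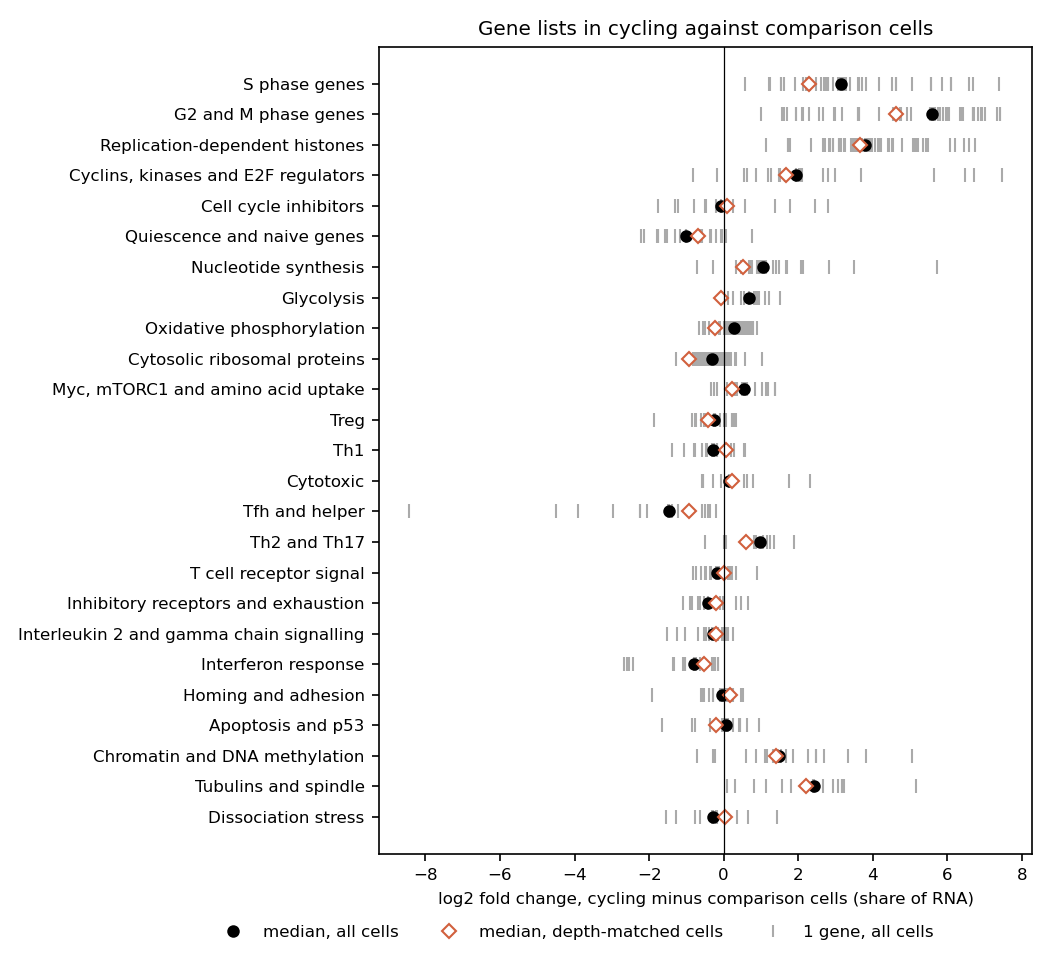
Log2 fold change of cycling over comparison cells (x axis) for the genes of each list (y axis; grey ticks, 1 per gene tested), with the list's median over all cells (filled circles) and over depth-matched cells (open diamonds). The G2 and M phase genes have a median of 5.60 and the follicular helper list one of -1.47, while the oxidative phosphorylation median moves from 0.28 to -0.24.

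**Figure D4:**
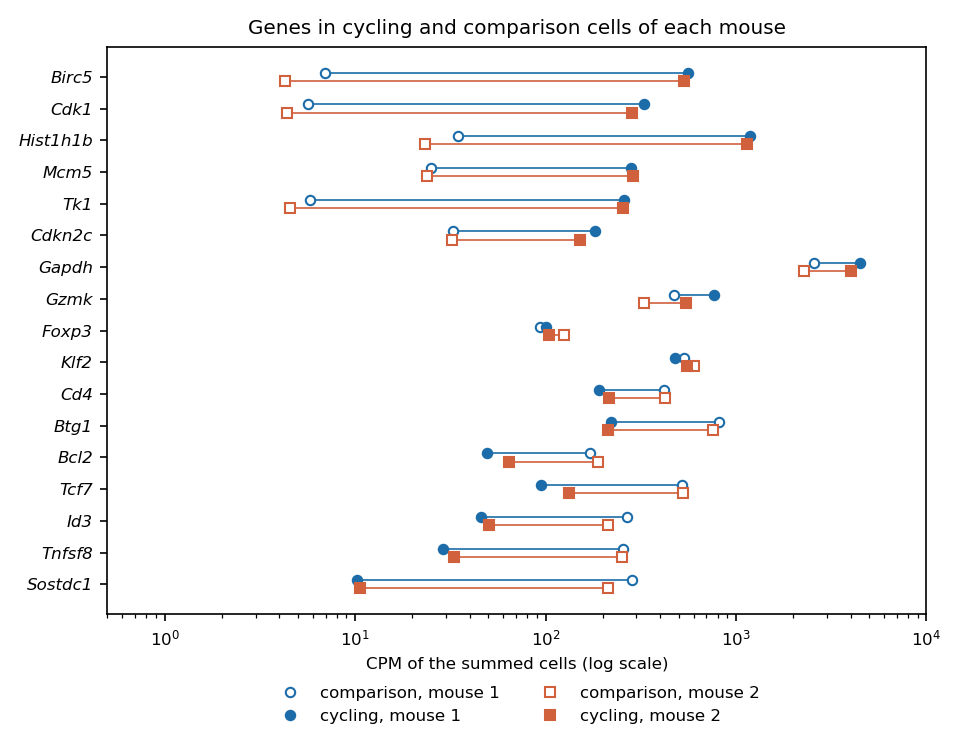
Levels of 17 named genes in CPM (x axis, log scale) in comparison cells (open) and cycling cells (filled) of mouse 1 (circles) and mouse 2 (squares), a line joining the classes of a mouse. Birc5 goes from 6.98 to 559 CPM in mouse 1, Tcf7 from 521 to 94.4, and Foxp3 from 93.7 to 100.4.

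Markers of other cell types, apart from Ighm, were at low levels in both classes. Most of the summed level of the 6 B cell markers was that of Ighm, at 110 and 169 CPM in cycling and 164 and 189 CPM in comparison cells. The sum was 116.8 and 180.2 CPM in cycling and 167.6 and 195.1 CPM in comparison cells. Of the 3 markers tested, Cd79b (3.63 and 7.67 CPM in cycling and 1.92 and 4.12 CPM in comparison cells) and Igkc were called higher and Ighm lower. Ms4a1, the CD20 gene of B cells, was at 0 in the cycling cells of both mice. Ighm, a member of the list, was found in 79.3% and 95.4% of Foxp3-positive and 12.8% and 22.0% of Foxp3-negative cycling cells, and Cd79b, a subunit of the B cell receptor, in 10.7% and 18.4% against 1.25% and 3.08%. Its partner Cd79a was found in 0 of 121 and 1 of 87 Foxp3-positive cycling cells. The 7 myeloid markers summed to 24.3 and 38.4 CPM in cycling and 35.9 and 31.1 CPM in comparison cells. Cells with a UMI of a narrower set of B, myeloid and dendritic markers, without Ighm, Cd79b and Cd68, were 5.67% and 8.60% of cycling and 2.59% and 2.92% of comparison cells, and without them 6830 genes were called. These shares were not taken at equal depth, and cycling cells were the deeper class. The part of other cell types and of doublets in the differences was not tested; the doublet caller Scrublet called 0 cells.

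Within the cycling class, Foxp3-positive cells were higher in most genes of the Treg list. Of 9931 genes tested 1796 were called (18.1%), 938 higher (9.45%) and 858 lower (8.64%) than in Foxp3-negative cycling cells, over 121 and 87 against 320 and 227 cells. Of 18 Treg genes other than Foxp3, 16 were higher and 0 lower (median 1.99). Il2ra had 98.1 and 113 CPM against 7.33 and 9.69 CPM (log2 fold change 3.63 ± 0.18 (SE), edgeR adjusted p = 3.03e-86). Ctla4 had 459 and 554 CPM against 57.1 and 56.5 CPM (log2 fold change 3.13 ± 0.09 (SE), edgeR adjusted p = 9.02e-242). Itgae, the αE integrin, and Ccr8, a chemokine receptor of tissue Treg, were higher by 4.38 ± 0.20 and 3.88 ± 0.17. Rln3, a relaxin-family peptide, was found in 29.8% and 20.7% of Foxp3-positive and 1.25% and 0.441% of Foxp3-negative cycling cells, with 135 and 81.2 CPM against 1.33 and 0.855 CPM (log2 fold change 6.56 ± 0.26 (SE), edgeR adjusted p = 8.6e-134). Cep112, a centrosomal protein gene, was higher by 5.26 ± 0.32. Gm13522 was called at 6.33, but 1 cell held 87.5% of its UMIs in the Foxp3-positive sum of mouse 1.

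More Th1 and cytotoxic genes were lower than higher in Foxp3-positive cycling cells. Of 16 Th1 genes 10 were lower and 4 higher, among them Cxcr3, Hopx and Il12rb1, and of 11 cytotoxic genes 8 were lower and 3, Cst7, Klrg1 and Gzmb, higher. With DESeq2 6 Th1 genes were lower and 2 higher, and 6 cytotoxic genes lower and 1 higher. Ifng, the type 1 cytokine, had 27.2 and 27.9 CPM against 138 and 105 CPM (log2 fold change -2.15 ± 0.15 (SE), edgeR adjusted p = 1.15e-42). Il21 had 5 and 0 UMIs in Foxp3-positive and 228 and 117 in Foxp3-negative cycling cells. Ifitm1, an interferon-induced membrane protein, had 1 and 1 against 776 and 656 UMIs, a ratio of Foxp3-negative over Foxp3-positive levels of 305 (counting interval 84.3 to 2521). These UMIs came from only 21 of 320 and 13 of 227 Foxp3-negative cycling cells, and 1 cell held 17.9% and 40.5% of them. The interval takes UMIs as independent and leaves out the spread between cells. Gas7, a cytoskeletal adaptor, had 2 and 0 against 156 and 82, and Nebl, an actin-binding protein gene, 1 and 2 against 73 and 146. With so few UMIs the ratio of levels for Nebl, Foxp3-negative over Foxp3-positive, was 31.1 (counting interval 10.5 to 152), and that for Gas7 was 50.7 (counting interval 13.9 to 421). Tcf7 (-2.02), Bcl2 (-1.72) and Pdcd1 (-0.92) were lower in Foxp3-positive cells, and Il2rb higher (0.91). Il7r (-1.10) was not called without the mouse block (edgeR adjusted p = 0.153), nor Myc (0.92) by DESeq2 (adjusted p = 0.173).

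Whether S phase genes differed between the Foxp3 classes of cycling cells depended on the test. With edgeR 15 of 44 were lower in Foxp3-positive cycling cells and 0 higher (median -0.23), and without the mouse block 7 were lower (beside 4.78% of all genes). With DESeq2 1 was lower, beside 1.94% of all genes, a share near the background. Of 53 G2 and M phase genes 3 were lower and 3 higher with edgeR, and 0 were called with DESeq2. Of 18 genes of interleukin 2 and γ chain signalling 13 were higher and 1, Pim2, lower, and of 15 interferon response genes 8 were higher and 0 lower. DESeq2 called 7 and 3 of these higher, beside 2.17% of all genes.

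Few genes were called between Vβ3 and other cycling cells. Of 9858 genes tested 73 were called (0.741%), 33 higher (0.335%) and 40 lower (0.406%), over 107 and 71 against 334 and 243 cells. None of the S phase, G2 and M phase or histone genes was called by edgeR or by DESeq2, while 689 genes overall had an unadjusted p under 0.05. Gstp2, a glutathione transferase, was found in 54.2% and 60.6% of Vβ3 and 16.2% and 18.1% of other cycling cells, with 75.5 and 84.5 CPM against 20.8 and 22.4 CPM (log2 fold change 1.91 ± 0.17 (SE), edgeR adjusted p = 9.56e-07). Gm20400, an unnamed gene model, had 201 and 159 CPM against 58.3 and 45.9 CPM (log2 fold change 1.82 ± 0.12 (SE), edgeR adjusted p = 2.23e-08). Both were called under every alternative that tested them. Of 19 quiescence and naive genes 5 were lower, Igfbp4, Il7r, Ccr7, Bcl2 and Txnip, and 0 higher, but none of them was called without the mouse block, and DESeq2 called 1 gene of the list lower (beside 0.0304% of all genes). Igfbp4 had 0 and 1 UMIs against 59 and 216, and of the latter 1 cell held 33.8% in mouse 2; the ratio of other over Vβ3 levels was 87 (counting interval 15.5 to 3447). Gzma, a granzyme, had 19.5 and 18.2 CPM against 131 and 67.6 CPM, but 1 cell held 49.8% of the UMIs of the other cells in mouse 1. Foxp3 did not pass (-0.63 ± 0.15, edgeR adjusted p = 0.0595), though it was called without the highest cell of each sum (-0.68), nor did Pdcd1 (0.07 ± 0.13). Ifng (0.92 ± 0.12, edgeR adjusted p = 0.000237) was no longer called without the highest cell of each sum (0.35), and Penk, the proenkephalin gene, called at 1.41, had 63.6% and 62.5% of its UMIs in 1 cell of each mouse. Hbb-bs, a haemoglobin chain called at 5.70, had 98.9% of its UMIs in 1 cell of mouse 2. Spp1, Actn2 and 5830405F06Rik were lower by 3.50, 3.21 and 2.61, on 5, 6 and 11 UMIs in Vβ3 cells, but DESeq2 called none of them (adjusted p = 0.151 to 0.177), and Spp1 and Actn2 were not called without the mouse block. For Spp1, 1 clonotype held 80.2% of the UMIs of the other cells in mouse 2.

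Gcg, the gene of proglucagon, the hormone precursor of pancreatic α cells and gut L cells, was higher in Vβ3 cycling cells. It had 490.0 and 437 CPM against 95.2 and 67.8 CPM (log2 fold change 2.54 ± 0.12 (SE), edgeR adjusted p = 3.39e-11). By cells, a Gcg UMI was found in 46 of 441 cycling cells of mouse 1 (10.4%) and 35 of 314 of mouse 2 (11.1%), against 4.25% and 2.36% of comparison cells, which were captured at lower depth. Among Foxp3-negative cycling cells the share was 30.3% and 41.2% with Vβ3 and 8.23% and 7.39% with another segment. Foxp3-positive cycling cells held it in 0 of 121, which allows up to 2.48% of them to have a UMI, and in 1 of 87. The cells with Gcg came from 37 and 33 clonotypes of cycling cells, but the UMIs were unevenly spread. In Vβ3 cycling cells 1 clonotype of each mouse held 35.1% and 32.6% of them. In the other cycling cells 1 cell of each mouse held 33.5% and 30.4%. Other islet hormone genes, Ins1, Ins2, Sst, Ppy and Iapp, had 0 UMIs in all kept cells.

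Cycling cells of clonotypes with 2 or more cells, set against those of single-cell clonotypes, were higher in inhibitory receptors and lower in naive genes. Of 9782 genes 211 were called (2.16%), 97 higher (0.992%) and 114 lower (1.17%), over 323 and 202 against 118 and 112 cells. Of 12 inhibitory receptor and exhaustion genes 7 were higher and 1, Ctla4, lower (median 0.73). Pdcd1 had 232 and 249 CPM against 123 and 77.1 CPM (log2 fold change 1.30 ± 0.14 (SE), edgeR adjusted p = 1.72e-05). Nr4a2, an early response factor of receptor signals, was higher by 1.63 ± 0.21, but was not called with 1 cell per clonotype (edgeR adjusted p = 0.495). Of 11 cytotoxic genes 4 were higher, Gzmk, Nkg7, Prf1 and Cst7, and 1, Gzma, lower. Of 20 quiescence and naive genes 8 were lower and 0 higher, and 4 were lower without the mouse block (beside 0.215% of all genes) and 4 with DESeq2 (beside 0.181%). Il7r had 20.2 and 47 CPM against 81.2 and 174 CPM (log2 fold change -1.92 ± 0.14 (SE), edgeR adjusted p = 1.83e-07), and Ccr7 9.58 and 15.4 CPM against 46.4 and 68.6 CPM (log2 fold change -2.19 ± 0.19 (SE), edgeR adjusted p = 1.53e-06). Of 18 genes of interleukin 2 and γ chain signalling 6 were lower and 0 higher, among them Socs2, a brake on cytokine signals (-2.09 ± 0.27), and 3 were lower with DESeq2. Ly6c1 (-4.36), Igfbp4 (-4.02) and Plac8 (-2.05) were also lower, but Igfbp4 was at -1.87 in mouse 1 and -5.88 in mouse 2 and was not called by DESeq2 (adjusted p = 0.966). Ifng was not called (0.19 ± 0.22). Some of the largest increases rested on few cells. Ccl1, which DESeq2 did not call, was found in 2 cells of mouse 1 and 1 cell of mouse 2 and in no cell of a single-cell clonotype. Of its 61 UMIs in mouse 1, 60 were in 1 cell, and all 95 in mouse 2 were in 1 cell, so no ratio is given. In addition, 1 cell of mouse 1 held 84.5% of Xcl1 (4.48) and 85.6% of Crtam (2.27), and Spp1 (3.94) had 42.4% and 40.5% in 1 cell of each mouse. Without the highest cell of each sum Xcl1 (5.33) and Spp1 (4.68) were still called and Crtam (1.71) was not; DESeq2 called Xcl1 but neither Spp1 nor Crtam. Of the S phase genes 1, Rpa2, was higher, and of the G2 and M phase genes 0 were called.

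**Figure D5:**
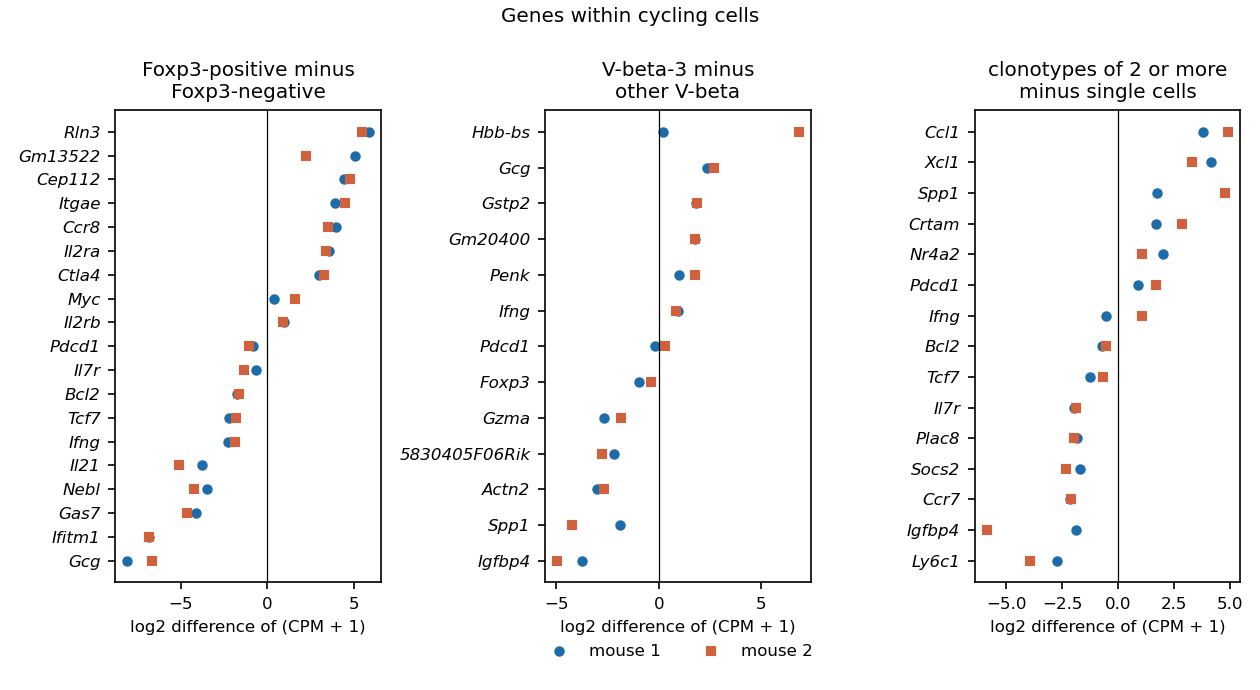
Difference of log2(CPM + 1) (x axis) in mouse 1 (circles) and mouse 2 (squares) for the named genes (y axis) in 3 comparisons within cycling cells. The mice lie together for genes such as Il2ra, Gstp2 and Ccr7, and apart for Hbb-bs, of which 1 cell of mouse 2 held 98.9% of the Vβ3 UMIs.

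These 3 comparisons divide the same cycling cells and are not independent of each other, since Foxp3, Vβ3 and clonotype size overlap. Vβ3 cells were 14.9% of Foxp3-positive and 27.8% of Foxp3-negative cycling cells in mouse 1, and 23.0% and 22.5% in mouse 2. In clonotypes of 20 or more cells only 9 and 3 of the 105 and 60 cycling cells were Foxp3-positive. The cycling difference itself differed between Foxp3-positive and Foxp3-negative cells for 508 genes (4.55%), and between Vβ3 and other cells for 89 genes (0.755%), by an interaction term in edgeR.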

How the data were processed

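Whole-number UMI counts per gene and cell were deposited by the authors, with receptor contigs per cell; Cell Ranger 7.0.1 and the builds mm10 and GRCm38 are named in the submitters' processing notes. Counts were summed per mouse and class and tested with edgeR 4.0.16 (limma 3.58.1, R 4.3.3): TMM scaling, filterByExpr, quasi-likelihood fit, the mouse as a block because both classes come from the same animal, and Benjamini-Hochberg adjustment. Mki67, Top2a and receptor V, D and J segments were left out of the tests, and Foxp3 in the Foxp3 comparison. DESeq2 1.42.0 was an alternative. Summed counts were 6336811 and 5083356 in cycling and 23483390 and 27906092 in comparison cells. With 1 residual degree of freedom, p-values lean on the spread shared across genes. In the fits of cycling against comparison cells and of the Foxp3 classes, that shared spread was the only one used. A gene's own spread between the 2 mice did not enter those p-values, so a very small value there is no measure of replication. The fits were tested on simulated data, where the share of false calls was above the nominal level in the Foxp3, Vβ3 and clonotype size comparisons. Scrublet called 0 doublets, so none were removed.

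The members and gene lists were chosen with earlier results of these data known. Named genes were called genes of at least 20 CPM with like direction in the mice and the largest changes (12 each way for cycling against comparison cells, 5 each way otherwise), from each list the 3 members ranked first by p, and a fixed set; other genes named were chosen after their values were seen. Some genes that these rules cover are not reported here. The Igfbp4 background cells were defined after the data were seen.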

Additional observations from a re-analysis of the deposited data

Results flagged for a closer look

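The difference between cycling and comparison cells was itself different in Foxp3-positive and Foxp3-negative cells for 508 of 11172 genes by an edgeR interaction test (4.55%), and for 4 in depth-matched cells. The values are the log2 fold change of cycling over comparison cells among Foxp3-positive cells minus that among Foxp3-negative cells. They were 2.19 for the cyclin F gene Ccnf, 2.07 for the kinesin gene Kif13a and 1.96 for Id3. Ccnf was higher in cycling cells of both classes, at 117 and 113 CPM with Foxp3 and 121 and 99.2 CPM without. Its value rested on 2 and 4 UMIs in Foxp3-positive comparison cells (0.564 and 0.788 CPM). Kif13a and Id3 were lower in cycling cells of both classes, but less so with Foxp3. Arhgap5 was also at 1.96. Below 0 were Hbb-bs (-8.66), Gcg (-4.64, but -0.47 in depth-matched cells), Mmp9 (-4.24), Gas7 (-4.11, but 2.70 in depth-matched cells) and the chemokine receptor Ccr6 (-2.93). Arhgap5, Hbb-bs, Gcg, Mmp9 and Ccr6 were not called without the mouse block (edgeR adjusted p = 0.0699 to 0.213), nor without the highest cell of each sum. Mmp9 had 5 and 1 UMIs in Foxp3-positive and 1 and 10 in Foxp3-negative cycling cells. None of the genes named here that were tested in depth-matched cells was called there. For Hbb-bs, 1 cycling cell of mouse 2 held 96.8% of the UMIs of cycling cells and 1 comparison cell 80.9% of those of comparison cells.

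Between Vβ3 and other cells the cycling difference was different for 89 of 11788 genes (0.755%), and for 0 in depth-matched cells. The values were 9.67 for Hba-a1 and 9.13 for Hbb-bs, each resting mainly on 1 cycling cell and 1 comparison cell of mouse 2 (for Hba-a1, 98.4% and 85.4% of the UMIs of their class), 2.43 for the chemokine Ccl3, 2.32 for Nr4a2 and 2.10 for Ier3, and -1.98 for Ccr7 (0.80 in depth-matched cells), -1.84 for St6gal1, -1.56 for Id3, -1.49 for Tespa1 and -1.40 for Aff3. Without the mouse block Hba-a1, Hbb-bs, Nr4a2 and Ccr7 were not called (edgeR adjusted p = 0.119 to 0.344). Nr4a2 was also not called in thinned cells or without the highest cell of each sum.

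Barcodes outside the kept cells also passed the gate on Mki67 and Top2a. Of those with no receptor contig 10.1% in mouse 1 and 10.8% in mouse 2 did, of those with 2 or more TRB contigs 9.60% and 7.83%, and of those with TRA contigs only 4.26% and 3.94%.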

How the results depend on the processing

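The mouse was the replicate block of the main fits. With no replicate block 1026 genes were called between Foxp3 classes, 10 between Vβ3 classes, 44 between clonotype sizes, 108 in the Foxp3 interaction and 17 in the Vβ3 interaction. With DESeq2 the counts were 3927 between cycling and comparison cells, 392 between Foxp3 classes, 7 between Vβ3 classes, 33 between clonotype sizes and 324 in the Foxp3 interaction. Depth-matched cells gave 3452, and 4 and 0 in the interactions, with fewer cells. Thinned cells gave 4424, and 107 and 26 in the interactions. The Vβ3 count was 153 without the filter on low counts (318 in its interaction), 178 at a gate of 1 Mki67 and 1 Top2a UMI, 159 with 1 cell per clonotype, 40 with stricter cell filters, 136 without the top 5% of Scrublet scores, 116 without cells with other cell type markers and 139 without the highest cell of each gene. The clonotype size count was 379 at the looser gate, 64 with 1 cell per clonotype and 332 without the top Scrublet scores. The looser gate called 8.13% of kept cells cycling. The cause of these changes was not tested. Alternatives on Scrublet scores, markers and the highest cell were chosen after seeing the data. The planned removal of called doublets was not run.

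The sign of some genes turned. In depth-matched cells the difference between cycling and comparison cells was 0.090 for Cdkn1b, -0.017 for Gapdh, -0.71 for Myc, 0.0080 for Ccl5 and 0.094 for Ifng. Against comparison cells of clonotypes that held a cycling cell it was 0.21 for Ccr7, 0.078 for Il7r, -0.38 for Gzmk, -0.047 for Gzmb, 0.42 for Ctla4, 0.51 for Ighm and -0.60 for Eomes. With 1 cell per clonotype Ifng was at 0.23 and, between clonotype sizes, Crtam at -0.036. In depth-matched cells the interaction of Gas7 was 2.70 and that of Ccr7 with Vβ3 was 0.80. Tmem176b was at -0.24 in mouse 1 alone and 1.90 in mouse 2 alone.

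Leaving out a mouse leaves 1 animal and no test: the share of cycling cells was then 4.96 to 7.36%, the Foxp3 difference 3.21 to 6.86 points, the Vβ3 difference -3.41 to -1.94 points and the clonotype difference 1.06 to 4.05 points. The 2 animals of 1 condition limit every comparison.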
